A study of Mus musculus with 289 samples.

Results

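The cells described here were 37 single astrocytes of the adult mouse cerebral cortex that had been given a guide RNA (gRNA) against Sox9 and were collected at day 21. The 2 classes were chosen by the Sox9 mRNA level measured in each cell, in CPM, the gene's count per 1000000 counts over all genes of the cell. A cell was called Sox9-positive at 20 CPM of Sox9 or more and Sox9-low under that. The series has 289 labelled samples, of which 37 entered the split. In batch 4 the split gave 12 Sox9-positive and 4 Sox9-low cells, and in batch 5 it gave 13 Sox9-positive and 8 Sox9-low cells. The labels give both classes the same mouse line, virus and handling. The titles of batch 4 fall into a pair of series, 21S (4 Sox9-positive and 2 Sox9-low cells) and 21S2 (8 Sox9-positive and 2 Sox9-low cells). The animals were adult transgenic mice expressing Cas9, the nuclease that a gRNA directs to a matching site. A lentivirus with astrocyte tropism (Mok-LV) carrying the gRNA had been injected into the cortex, and single cells were later drawn up with an electrophysiology pipette and made into Smart-seq2 libraries from polyA RNA. Groups set beside them were 15 control gRNA cells of day 21 in batch 4, 23 cells with no gRNA in batch 5 whose day is given as adult, and 2 and 5 in-slice controls of day 21 in batches 4 and 5. By title, the in-slice controls of batch 4 belong to the series of the control gRNA cells (21C). Those of batch 5 belong to the series of the Sox9 gRNA cells (b5_21S) or of cells given a Trps1 gRNA (21T2 and 21T3), so their pool mixes series. The labels do not say whether a virus had been given where no gRNA was. They also name no animal, so each class in each batch was treated as 1 pool of cells. No difference below has a replicate check, and none carries a p-value.

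Sox9 is a transcription factor of the SoxE family that binds short DNA motifs through a high mobility group domain. It acts in the switch of neural stem cells from making neurons to making glia, stays on in mature astrocytes, and is known outside the brain as the master regulator of cartilage. Its paralogues Sox8 and Sox10 share that domain, and Sox10 is best known in oligodendrocytes. The genotype at Sox9 in each cell was not analysed here, so Sox9-low names an mRNA level and not an edited allele.

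Sox9 chose the classes, and its values are given only as a description. In batch 4 the Sox9-positive cells held 29.2 to 525 CPM (median 233), and all 4 Sox9-low cells held 0 reads. In batch 5 the Sox9-positive cells held 112.5 to 784 CPM (median 289) and the Sox9-low cells 0 to 13.1 CPM (median 1.28), 3 of them with 0 reads. The nearest cells to the threshold of 20 CPM were at 29.2 and 58.8 CPM above it in batch 4, and at 13.1 and 9.50 CPM below it in batch 5. Sox9-low cells were 25% of the Sox9 gRNA cells of batch 4 (4 of 16, exact binomial 95% interval 7.27 to 52.4) and 38.1% of those of batch 5 (8 of 21, 18.1 to 61.6). The same threshold put 60% of the control gRNA cells of batch 4 (9 of 15, 32.3 to 83.7), 17.4% of the no gRNA cells of batch 5 (4 of 23, 4.95 to 38.8) and all 2 and 5 in-slice controls in the low class. As a description of these cells, the Sox9-low share was lower with the Sox9 gRNA than with control gRNA in batch 4. It was higher than without gRNA in batch 5, with overlapping intervals in both. These intervals and all others below cover counting error only. For shares of cells they also take each cell as an independent draw, though the labels name no animal.

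Single cells differed widely in depth and makeup, and several measures moved with the split. Reads in genes ran from 355477 to 1763165 in the Sox9-positive and from 908353 to 1125174 in the Sox9-low cells of batch 4, and from 537362 to 1060869 in the Sox9-positive against 216448 to 1141634 in the Sox9-low cells of batch 5. Genes with a read numbered 1585 to 8702 (median 4102) in the Sox9-positive cells of batch 4, against 2495, 2352, 5469 and 3260 in the Sox9-low cells. In batch 5 they numbered 2761 to 10999 (median 4636) in Sox9-positive cells and 974 to 4859 (median 3419) in Sox9-low cells. The Sox9-positive pool held a read in 18376 genes and the Sox9-low pool in 9041 in batch 4, and the Sox9-positive pool in 17958 and the Sox9-low pool in 11146 in batch 5. The Sox9-low pools were thus shallower in genes, with fewer cells in each, and the part of this in the results below was not tested. No pair of cells looked like repeats of 1 library, since the correlation of log levels between cells ran from 0.114 to 0.390 over 120 pairs in batch 4 and from 0.142 to 0.650 over 210 pairs in batch 5.

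The astrocyte label was checked against defining markers such as Slc1a3, Aldoc and Gja1 and a list of 35 astrocyte identity genes. The glutamate transporter Slc1a3 was read in 11 of 12 Sox9-positive and 4 of 4 Sox9-low cells of batch 4 and in 13 of 13 Sox9-positive and 8 of 8 Sox9-low cells of batch 5. In batch 4, however, replicates 2 and 8 of the Sox9-low cells held it at only 0.889 and 1.10 CPM, which is 1 read each, and both held no read of Aldoc or Gja1. Summed over the list, astrocyte identity genes took 3740 to 76061 CPM (median 18309) in the Sox9-positive cells of batch 4. In the Sox9-low cells they took 2973 CPM in replicate 2, 638.5 in replicate 8, 16610 in replicate 11 and 126802 in replicate 12, with a read in 11, 13, 22 and 31 of the genes. The 2 in-slice controls of batch 4 held Slc1a3 at 1.88 CPM in their pool. In replicate 8 the 100 most abundant genes took 94.9% of reads. Markers of other cells were unequal as well. Microglial and macrophage genes summed to 19.7 to 14775 CPM in the Sox9-positive cells of batch 4, against 21190 and 28581 CPM in Sox9-low replicates 2 and 11 and 6.61 and 72.1 CPM in replicates 8 and 12. In batch 5 they summed to 218 to 60678 CPM (median 9439) in Sox9-positive cells and 1370 to 16510 (median 10295) in Sox9-low cells, where the no gRNA cells had a median of 931. Oligodendrocyte genes reached 88964 CPM in 1 Sox9-low cell of batch 5. Cells of both classes therefore went partly against the astrocyte label in both batches. In batch 5, Sox9-low replicate 6 held 10179 CPM of astrocyte identity genes beside its 88964 CPM of oligodendrocyte genes. Sox9-positive replicates 4, 14 and 18 of batch 5 held microglial sums of 35029, 60678 and 34478 CPM, above their astrocyte sums of 34720, 60257 and 30810 CPM. In batch 4, Sox9-positive replicates 6, 10, 15 and 19 (3816, 6836, 5932 and 3740 CPM) and Sox9-low replicates 2 and 8 were low in the astrocyte sum. Sox9-low replicate 11 of batch 4 was high in microglial genes. Without the 6 cells of batch 4 under 7000 CPM of astrocyte identity genes, 62.9% of 8537 genes were higher and 25.2% lower in Sox9-positive cells of that batch. Blood RNA followed the title series. Haemoglobin genes summed to 603 to 42350 CPM in the Sox9-positive and 16761 and 17985 CPM in the Sox9-low cells of series 21S2, against 7.94 to 788 CPM in the Sox9-positive and 47.3 and 59.5 CPM in the Sox9-low cells of series 21S, and the control gRNA cells had a median of 118 CPM. Mitochondrial reads took 2.19% to 12.9% in series 21S2 and 0.712% to 2.41% in series 21S. Values of batch 4 without 1 cell, or within 1 series, are given below beside part of the results that they change. Batch 4 values given without them are not thereby stable.

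**Figure D1:**
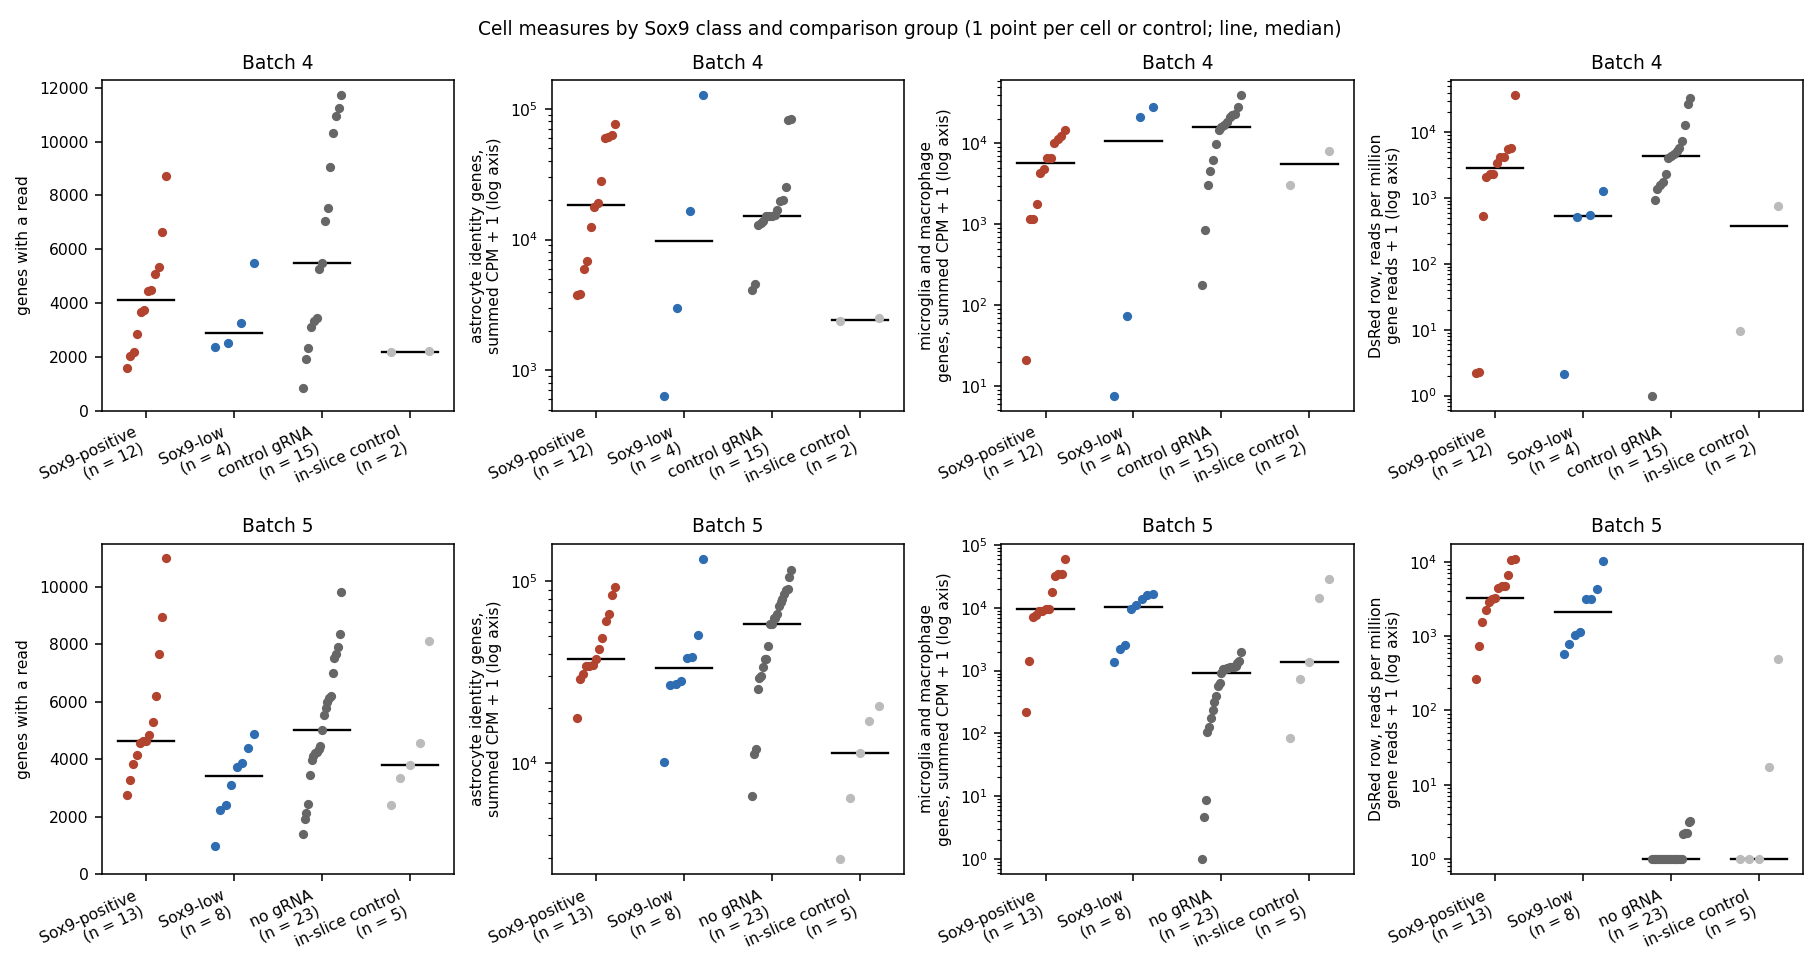
Genes with a read, summed astrocyte identity genes (CPM + 1, log axis), summed microglial and macrophage genes (CPM + 1, log axis) and DsRed (CPM scale, + 1, log axis) in batch 4 (top) and batch 5 (bottom), with 1 point per cell or control and a line at the median. The Sox9-low cells of batch 4 spread over the astrocyte sum from 638.5 to 126802 CPM, while those of batch 5 stay between 10179 and 133296.

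Most genes were read more in the Sox9-positive pools. The ratio used is the log2 of pooled CPM after adding 5 to each pool, Sox9-positive over Sox9-low, for genes at 5 CPM or more in the higher pool, and a gene was counted when that ratio was 1 or more in size. In batch 4, 61.4% of 8832 genes were higher and 22.3% lower in Sox9-positive cells. In batch 5, 49.8% of 11362 genes were higher and 18.1% lower. Of 7130 genes at that level in both batches, 2166 (30.4%) were higher in both and 245 (3.44%) were lower in both. The median gene stood at 1.46 in batch 4 and 0.99 in batch 5, so a gene's ratio is read against those medians. They belong to genes past that filter, and over all genes with a read they were 0.10 and 0.20, with 27.2% and 29.7% of genes higher. Within batch 4 the median was 2.19 in series 21S (65.7% of 4695 genes higher) and 1.55 in series 21S2 (62.9% of 8615). A pool is carried by whichever cell is highest, and a second measure gave each cell equal weight: the mean over cells of log2(CPM + 5), Sox9-positive minus Sox9-low. By that measure the median gene stood at 0.42 and 0.54, with 16.8% of genes higher and 12.2% lower in batch 4, and 26.8% and 2.44% in batch 5. Higher in both batches were 626 genes (8.78%) and lower in both 27 (0.379%).

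The batches overlapped little more than their separate shares. Of the genes higher in batch 5 by pools, 67.4% were also higher in batch 4, beside 62.4% of all 7130 genes, and of those higher in batch 4, 48.7% were higher in batch 5, beside 45.1%. For lower genes the shares were 21.5% beside 19.6%, and 17.6% beside 15.9%. With equal weight per cell, 25.9% of the genes higher in batch 5 were higher in batch 4 beside 20.1% of all, and 43.7% of those higher in batch 4 were higher in batch 5 beside 33.9%. Spearman's rho between the batches' values across the 7130 genes was 0.05 for pools and 0.07 for cell means. Genes are not independent replicates, and the batches share no cell. By pools 717 and 619 genes had opposite directions in the batches. In neither batch did any gene keep all Sox9-positive cells above or below all Sox9-low cells (0 of 8832 and 0 of 11362 genes).

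**Figure D2:**
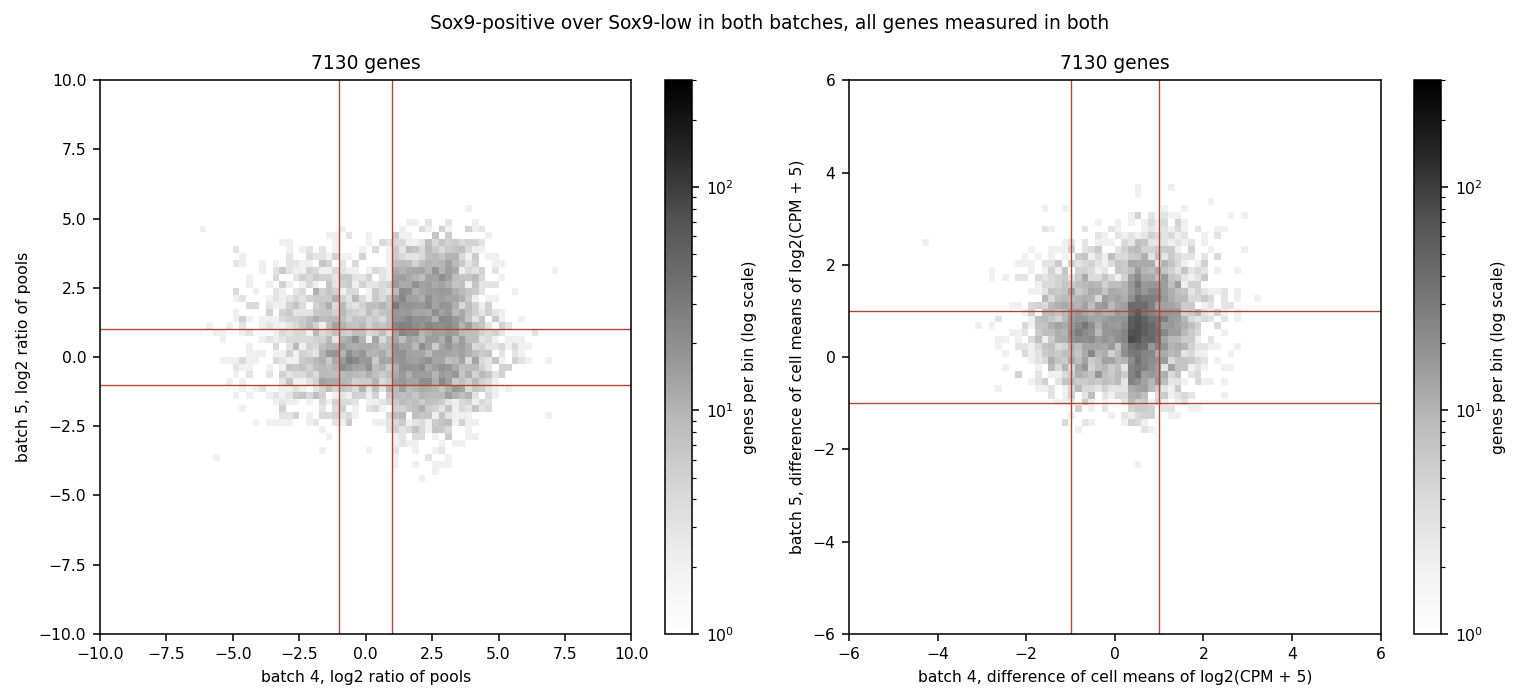
Each gene's Sox9-positive over Sox9-low value in batch 4 (x axis) and batch 5 (y axis) as the log2 ratio of pools (left) and the difference of cell means of log2(CPM + 5) (right), as counts of genes per bin for 7130 genes. Red lines mark 1 and -1. The cloud is shifted towards positive values on both axes and has little slope, with a rho of 0.05 and 0.07.

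Among genes higher in Sox9-positive cells of both batches, 149 met the naming rule, which also required a ratio past 1 once each pool had lost its highest cell for that gene, 20 CPM and a read in 40% of cells in the higher pool, and shares of cells differing by 20 percentage points. The 12 ranked first by size were Ucp2, Sf3b1, Fermt3, Asah1, Tpd52l2, Ctso, Nmt2, Nfkbiz, Fam171b, Psmc6, Ccl4 and Rlim. They were chosen for their size, so that size is a description. RefSeq promoters, 250 bases before to 50 after the start on GRCm38.p6, were found for 8 of the 12. They were searched on both strands for AACAAT and ACAAAG, the core letters that Sox proteins are known to bind, and 4 of 8 held either one. Over 27025 promoters of the same 300 bases, 10.9% held AACAAT, 18.7% ACAAAG and 27.2% either. None of the 5 promoters matched among the shared lower genes described later held either. A match of 6 letters is not a binding site, and no match says only that the letters are not in this window. The 3 promoters shown carry a match near genes read in few or no Sox9-low cells, and capitals mark the match on either strand. They lie at chr7:100493108-100493407 on the + strand (Ucp2), chr19:7019420-7019719 on the - strand (Fermt3) and chrX:103981236-103981535 on the - strand (Rlim).
Ucp2 promoter: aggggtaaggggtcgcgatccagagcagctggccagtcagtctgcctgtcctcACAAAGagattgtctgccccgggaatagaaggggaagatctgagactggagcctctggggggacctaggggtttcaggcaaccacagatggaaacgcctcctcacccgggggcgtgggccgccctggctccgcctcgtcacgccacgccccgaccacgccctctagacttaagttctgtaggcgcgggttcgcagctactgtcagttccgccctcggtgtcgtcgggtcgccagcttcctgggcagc
Fermt3 promoter: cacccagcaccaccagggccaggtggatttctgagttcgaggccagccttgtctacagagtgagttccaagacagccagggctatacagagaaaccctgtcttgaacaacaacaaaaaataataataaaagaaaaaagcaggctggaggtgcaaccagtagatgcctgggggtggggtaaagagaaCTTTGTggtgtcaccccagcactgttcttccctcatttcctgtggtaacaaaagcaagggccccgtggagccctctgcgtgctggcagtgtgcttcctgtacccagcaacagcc
Rlim promoter: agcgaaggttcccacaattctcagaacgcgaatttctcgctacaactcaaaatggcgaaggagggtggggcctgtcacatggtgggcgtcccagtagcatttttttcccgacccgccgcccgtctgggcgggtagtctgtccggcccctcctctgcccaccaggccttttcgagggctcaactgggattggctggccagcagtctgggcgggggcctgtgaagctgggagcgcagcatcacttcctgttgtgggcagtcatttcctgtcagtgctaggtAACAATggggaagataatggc

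Sf3b1, a subunit of the spliceosome, was the member seen in most cells. It stood at 0 to 608 CPM (median 19.4) in the Sox9-positive cells of batch 4, against 0, 3.30, 110.0 and 0 CPM in the 4 Sox9-low cells, and at 0 to 930.0 CPM (median 534) in Sox9-positive cells against 0 to 354 CPM (median 0) in Sox9-low cells of batch 5. It had a read in 11 of 12 Sox9-positive and 2 of 4 Sox9-low cells of batch 4, and in 12 of 13 Sox9-positive and 2 of 8 Sox9-low cells of batch 5. The 4 Sox9-low values of batch 4 are throughout those of replicates 2, 8, 11 and 12, in that order. The cells overlap, but in batch 5 all except 2 Sox9-low cells were at 0. The pool log2 ratios were 2.63 (2.34 to 2.92) and 3.58 (3.38 to 3.79), and the differences of cell means were 1.98 and 4.94. These ranges join opposite ends of each pool's 95% counting interval and are not 95% intervals of the ratio. Control gRNA cells held 382 CPM in their pool and no gRNA cells 188, against 0 and 167 CPM in the in-slice controls.

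Asah1, the acid ceramidase of lysosomes, stood at 0 to 886 CPM (median 1.89) in the Sox9-positive cells of batch 4, against 0, 0, 12.8 and 0 CPM in the Sox9-low cells. In batch 5 it stood at 0 to 913 CPM (median 290.4) in Sox9-positive cells against 0 to 653 CPM (median 0) in Sox9-low cells, with a read in 12 of 13 Sox9-positive and 1 of 8 Sox9-low cells. A single Sox9-low cell carried the gene in each batch. Its log2 ratios were 4.55 and 1.51. Ucp2, a mitochondrial carrier of the uncoupling protein family, stood at 0 to 2282 CPM (median 66.2) in Sox9-positive cells against 171, 0, 0 and 0 CPM in Sox9-low cells of batch 4 and at 0 to 929 CPM (median 255) in Sox9-positive cells against 0 to 933 CPM (median 0) in Sox9-low cells of batch 5, with log2 ratios of 3.13 and 1.18. It was read in 1 Sox9-low cell of each batch and was absent from several Sox9-positive cells of both. In-slice controls of batch 4 held Ucp2 at 644 CPM and of batch 5 at 289 CPM, beside 453 and 271 CPM in the Sox9-positive pools.

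Fermt3 (kindlin-3, an integrin activator of blood-derived cells), Tpd52l2, Ctso (cathepsin O, a protease), Nmt2 (which attaches myristate to proteins), Fam171b, the chemokine gene Ccl4 and Rlim (a ubiquitin ligase) had no read in any of the 4 Sox9-low cells of batch 4. With 0 of 4 cells, a share of up to 60.2% remains possible. Against 3 counts over the Sox9-low pool, Nmt2 was at least 1287-fold higher, Rlim 393-fold, Fermt3 317-fold, Ccl4 231-fold, Tpd52l2 221-fold, Ctso 216-fold and Fam171b 189-fold. These bounds cover counting error only, and each of the genes had no read in several Sox9-positive cells of batch 4. Nmt2 owed much of its bound to 1 cell, at 7061 CPM beside a Sox9-positive median of 2.25. The highest Sox9-positive cells held 1511 and 857 CPM of Rlim, 982, 887 and 557 CPM of Fermt3, and 819 and 581 CPM of Ccl4. Nfkbiz, a nuclear regulator of NF-kappaB, had 1 read in the Sox9-low pool of batch 4 and was 794-fold (95% counting interval 142 to 31372) higher. In batch 5, where these genes were read in 1 to 3 of the 8 Sox9-low cells, the log2 ratios of Nmt2, Fermt3, Ccl4, Tpd52l2, Ctso, Fam171b and Nfkbiz ran from 1.66 (Ccl4) to 3.68 (Tpd52l2). Ctso there stood at 0 to 689 CPM (median 150.5) in Sox9-positive cells and 0 to 238 CPM (median 0) in Sox9-low cells. Rlim had 2 reads in the Sox9-low pool of batch 5 and was 383-fold (95% counting interval 106 to 3169) higher, and Psmc6, an ATPase subunit of the proteasome, had 3 and was 261-fold (95% counting interval 89.3 to 1269) higher, after a log2 ratio of 3.81 in batch 4.

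Fermt3, Ccl4 and Nfkbiz are also read in microglia, and their levels stood beside unequal microglial sums. In batch 4 the 2 Sox9-low cells of highest microglial sum had none of Fermt3 or Ccl4. Fermt3 pooled at 234 CPM in Sox9-positive and 0 CPM in Sox9-low cells of batch 4 and 221 CPM in Sox9-positive and 35.4 CPM in Sox9-low cells of batch 5, with 119 in control gRNA and 0 in no gRNA cells. Ccl4 pooled at 171 CPM in Sox9-positive and 0 CPM in Sox9-low cells of batch 4 and 260.4 CPM in Sox9-positive and 78.9 CPM in Sox9-low cells of batch 5, with 573 in control gRNA and 8.63 in no gRNA cells. The part of microglial RNA in either was not tested.

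**Figure D3:**
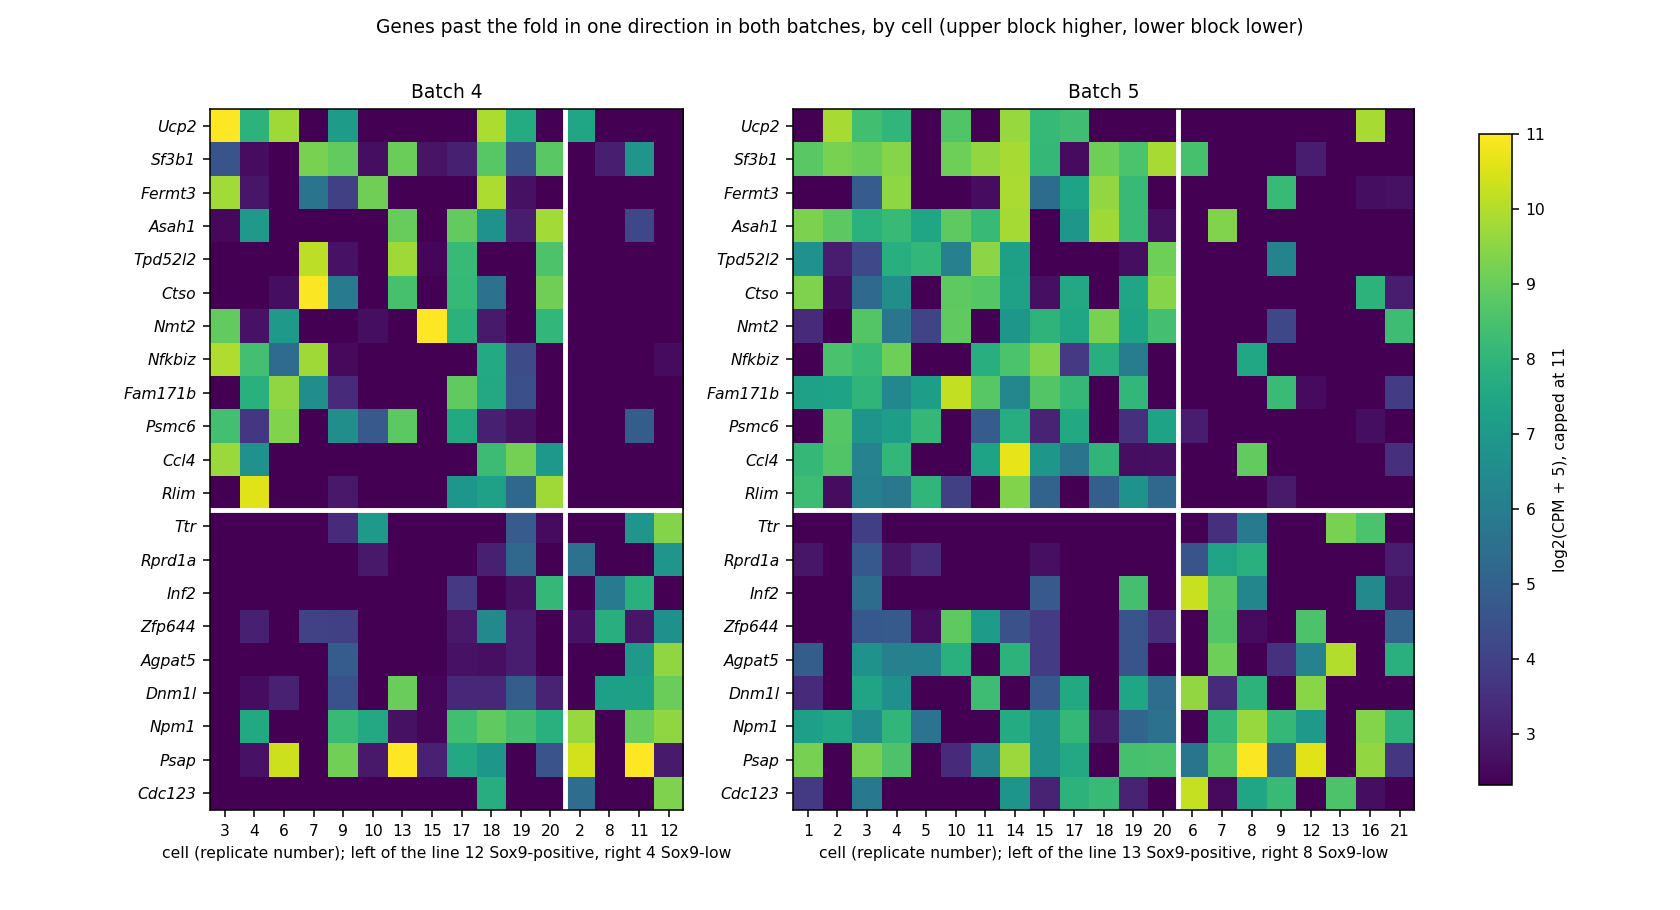
Colour gives log2(CPM + 5), capped at 11, for the 12 named genes higher in Sox9-positive cells of both batches (upper block) and the 9 lower in both (lower block). Columns are cells by replicate number, Sox9-positive left of the white line and Sox9-low right of it. The upper block is nearly empty in the 4 Sox9-low cells of batch 4, and no gene is filled in every Sox9-positive cell of both batches.

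Fewer genes were lower in both batches. The difference in shares of cells left fewer than 6 genes, so that requirement was dropped in this direction, and 9 genes then met the rule. They were Ttr, Rprd1a, Inf2, Zfp644, Agpat5, Dnm1l, Npm1, Psap and Cdc123. Ttr, the thyroid hormone carrier that choroid plexus secretes in large amounts, stood at 0 to 125 CPM (median 0) in the Sox9-positive cells of batch 4 against 0, 0, 109 and 662 CPM in the Sox9-low cells, and 0 to 10.1 CPM (median 0) in Sox9-positive cells against 0 to 601 CPM (median 3.07) in Sox9-low cells of batch 5. It was read in 4 of 12 Sox9-positive and 2 of 4 Sox9-low cells of batch 4 and in 1 of 13 Sox9-positive and 4 of 8 Sox9-low cells of batch 5, and its log2 ratios were -3.91 and -3.84. Npm1, the nucleolar chaperone nucleophosmin, was read more widely, at 0 to 464 CPM (median 185) in Sox9-positive cells against 799, 0, 502 and 745 CPM in Sox9-low cells of batch 4 and 0 to 272 CPM (median 85.9) in Sox9-positive cells against 0 to 813 CPM (median 256) in Sox9-low cells of batch 5. In batch 4, 3 of the 4 Sox9-low cells were above every Sox9-positive cell. The ratios of Npm1 were -1.62 and -1.54, and it has near-identical copies in the genome that counting could split. Psap, the precursor of the saposins that help lysosomal enzymes degrade sphingolipids, stood at 0 to 2482 CPM (median 10.9) in Sox9-positive cells against 1345, 0, 2289 and 2.74 CPM in Sox9-low cells of batch 4 and 0 to 827 CPM (median 183) in Sox9-positive cells against 0 to 1979 CPM (median 231) in Sox9-low cells of batch 5. Its ratios of -1.19 and -1.47 come with wide overlap of the cells, and the first was -0.30 without replicate 11.

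The other 6 lower genes are given as pools. Dnm1l, the dynamin-related protein that divides mitochondria, pooled at 52.0 CPM in Sox9-positive and 208 CPM in Sox9-low cells of batch 4 and 81.1 CPM in Sox9-positive and 234 CPM in Sox9-low cells of batch 5. Agpat5, a lysophosphatidic acid acyltransferase, pooled at 2.46 CPM in Sox9-positive and 232 CPM in Sox9-low cells of batch 4 and 58.0 CPM in Sox9-positive and 170.3 CPM in Sox9-low cells of batch 5. Inf2, an actin-assembling formin, had log2 ratios of -1.41 and -2.77, and its batch 4 value was 0.28 without replicate 11. Cdc123, which helps assemble the translation initiation factor eIF2, had -2.77 and -1.86, and 0.49 in batch 4 without replicate 12. Rprd1a, which binds the tail of RNA polymerase II, had -2.71 and -3.30, and the zinc finger gene Zfp644 had -2.39 and -1.43. Without replicate 12 the batch 4 values lay nearer to 0 for Dnm1l (-0.75), Ttr (-1.50), Rprd1a (-1.56) and Agpat5 (-2.53).

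Larger numbers of genes met the rule in 1 batch alone: 559 higher and 123 lower in batch 4, and 1136 higher and 46 lower in batch 5. The first 4 higher in batch 4 were Sat1, Slc25a3, Gm2a and Eno1. Sat1, which acetylates spermidine and spermine, stood at 0 to 3203 CPM (median 356) in Sox9-positive cells against 75.5, 0, 0 and 0 CPM in Sox9-low cells of batch 4. Gm2a, the activator of ganglioside GM2 breakdown in lysosomes, had no read in the Sox9-low cells of batch 4 and was at least 812-fold higher, while in batch 5 its pools held 474 CPM in Sox9-positive and 648 CPM in Sox9-low cells. The mitochondrial phosphate carrier Slc25a3 had ratios of 1.86 and 0.85, and enolase Eno1, which has a near-identical copy, 2.13 and -0.47. Without Sox9-low replicate 12 the batch 4 values were 6.90 for Slc25a3 and 6.33 for Eno1, and in series 21S2 Slc25a3 was at 0.49. The first 4 lower in batch 4 were Cd68, Cdk12, Scpep1 and Cyth3. Cd68, a lysosomal protein of macrophages and microglia, stood at 0 to 150.0 CPM (median 0) in Sox9-positive cells against 1393, 0, 1468 and 1.82 CPM in Sox9-low cells of batch 4, beside the microglial sums of replicates 2 and 11 given above. Cdk12 (a kinase of RNA polymerase II), Scpep1 (a carboxypeptidase) and Cyth3 (an exchange factor for Arf proteins) had ratios of -4.67, -5.53 and -4.94 in batch 4, and -0.22, -0.89 and -2.38 in batch 5.

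In batch 5 the first 4 higher genes were Tmem119, Ptgs1, Nfkbia and Pbxip1. Tmem119, a microglial membrane protein, stood at 0 to 1331 CPM (median 298) in Sox9-positive cells against 0 to 521 CPM (median 0) in Sox9-low cells, and in batch 4 its pools held 106 CPM in Sox9-positive and 279 CPM in Sox9-low cells. That batch 4 value rests on Sox9-low replicate 11, at 1209 CPM beside 0, 0 and 1.82 CPM in the other Sox9-low cells, and without it the log2 ratio was 4.29, in the direction of batch 5. Ptgs1, cyclooxygenase 1, stood at 0 to 1619 CPM (median 303) in Sox9-positive cells against 0 to 0.995 CPM (median 0) in Sox9-low cells. Its Sox9-low pool held 1 read, a ratio of 2476-fold (95% counting interval 444 to 97805), and batch 4 ran the other way (34.3 CPM in Sox9-positive and 297 CPM in Sox9-low cells, a log2 ratio of -2.94, and -1.02 without replicate 11). Nfkbia, the inhibitor of NF-kappaB, had -0.83 in batch 4 (-6.12 in series 21S and 0.13 in series 21S2) and 1.56 in batch 5. Pbxip1 had -0.51 and 5.86, with 3.83 in batch 4 without replicate 11. The first 4 lower were Hdgfl2, Palm, Hnrnpab and Gpd2. Gpd2, the mitochondrial glycerol-3-phosphate dehydrogenase, was read in 5 of 13 Sox9-positive and 7 of 8 Sox9-low cells of batch 5, at 0 to 71.2 CPM (median 0) in Sox9-positive cells against 0 to 959 CPM (median 94.7) in Sox9-low cells. Its batch 4 log2 ratio was -0.52, and 5.40 without replicate 12. Hdgfl2 pooled at 24.1 CPM in Sox9-positive and 333 CPM in Sox9-low cells of batch 5, and at 114 CPM in Sox9-positive and 9.84 CPM in Sox9-low cells, the other way, in batch 4. Palm had log2 ratios of 1.06 in batch 4 and -3.14 in batch 5, and Hnrnpab -1.48 and -4.20. Both batch 4 values depended on which cells were used. Without Sox9-low replicate 2, the only one with more than a few Hnrnpab reads, Hnrnpab was at 2.05, and it was at 0.88 without the highest cells and 1.38 without the cells low in astrocyte genes. Palm was at -3.15 in series 21S and 4.16 in series 21S2, and at 0.66 to 0.74 without replicate 2, 11 or 12.

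Astrocyte identity genes gave different pictures by pool and by cell. By pools, 4 of 34 members were higher and 9 lower in batch 4, and 1 of 35 higher and 5 lower in batch 5. The list medians were -0.15 and -0.09, under the all-gene medians of 1.46 and 0.99. Genes at 500 CPM or more over all Sox9 gRNA cells had pool medians of 0.68 and 0.17, nearer to the list's than those of all genes. With equal weight per cell, 21 were higher and 0 lower in batch 4 and 18 and 1 in batch 5, with medians of 1.26 and 1.05, above the all-gene 0.42 and 0.54. In batch 4 the pool median depended on which Sox9-low cells were used. Without replicate 12 it was 4.75, and without the cells under 7000 CPM of astrocyte identity genes it was -0.71. Within title series it was 5.40 in 21S and -0.997 in 21S2, which holds replicate 12. The Sox9-low cells of 21S are replicates 2 and 8, both low in the astrocyte sum, and they also remain in the 4.75. Abundant genes were called higher by cell means more often than genes overall. Of genes at 500 CPM or more, 47.3% were higher in batch 4 and 51.1% in batch 5, beside 16.8% and 26.8% of all genes, and the list's members in that range were higher in 11 of 16 and 13 of 22.

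By cell means, 12 of the 34 astrocyte genes measured in both batches were higher in both, beside 8.78% of all genes. None were lower in both, beside 0.379%. A share higher in both among genes of like level is not given here, nor are cell means without the astrocyte-poor cells of batch 4. The 12 were Aldh1l1, Slc1a2, Slc1a3, Gja1, Atp1b2, Fgfr3, Plpp3, Slc4a4, Ttyh1, Clu, Acsl6 and Bcan. Clu (clusterin, a secreted chaperone) stood at 0 to 15461 CPM (median 1160.4) in the Sox9-positive cells of batch 4, against 0.889, 3.30, 2.14 and 4419 CPM in the Sox9-low cells, and at 785 to 10785 CPM (median 2696) in Sox9-positive cells against 0 to 8773 CPM (median 2212) in Sox9-low cells of batch 5. The cell means differed by 3.76 and 2.31. In batch 4, 3 of the Sox9-low cells were near 0 and the fourth was within the Sox9-positive range. Slc1a3 (GLAST) followed the same form, at 0 to 4978 CPM (median 890.1) in Sox9-positive cells against 0.889, 1.10, 29.9 and 4852 CPM in Sox9-low cells of batch 4 and 69.8 to 10233 CPM (median 1862) in Sox9-positive cells against 4.73 to 6839 CPM (median 869) in Sox9-low cells of batch 5, with differences of 2.83 and 1.80. Slc1a2 (GLT-1), the main glutamate transporter, stood at 6.18 to 7711 CPM (median 1448) in Sox9-positive cells against 5.33, 96.9, 586 and 6493 CPM in Sox9-low cells of batch 4 and 25.1 to 4458 CPM (median 1976) in Sox9-positive cells against 18.9 to 2694 CPM (median 965) in Sox9-low cells of batch 5, with 1.77 and 1.08. Apart from the lowest cell of each batch, its Sox9-low cells lay inside the Sox9-positive range.

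Gja1 and Fgfr3 were at or near 0 in 3 of the 4 Sox9-low cells of batch 4, and above every Sox9-positive cell in the other. Gja1 (connexin 43, the gap junction protein) stood at 0 to 2345 CPM (median 89.6) in Sox9-positive cells against 0, 0, 6.41 and 4679.8 CPM in Sox9-low cells of batch 4 and 0 to 6457 CPM (median 1604) in Sox9-positive cells against 0 to 4512 CPM (median 848) in Sox9-low cells of batch 5. Fgfr3 stood at 0 to 1136 CPM (median 226) in Sox9-positive cells against 0, 1.10, 0 and 1982 CPM in Sox9-low cells of batch 4 and 53.4 to 2958 CPM (median 616) in Sox9-positive cells against 0 to 5907 CPM (median 113) in Sox9-low cells of batch 5. The differences of cell means were 1.44 and 2.07 for Gja1 and 1.77 and 2.93 for Fgfr3. Other abundant members did not share this. Aldoc, the aldolase of astrocytes, had 3.55 in batch 4 and 0.09 in batch 5, Apoe (apolipoprotein E) -0.37 and 0.59, and Cst3 (cystatin C) 1.26 and -0.18. The number of list genes with a read per cell had medians of 26 in Sox9-positive and 17.5 in Sox9-low cells of batch 4, and 31 in Sox9-positive and 27 in Sox9-low cells of batch 5, beside the difference in genes read per cell given above.

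**Figure D4:**
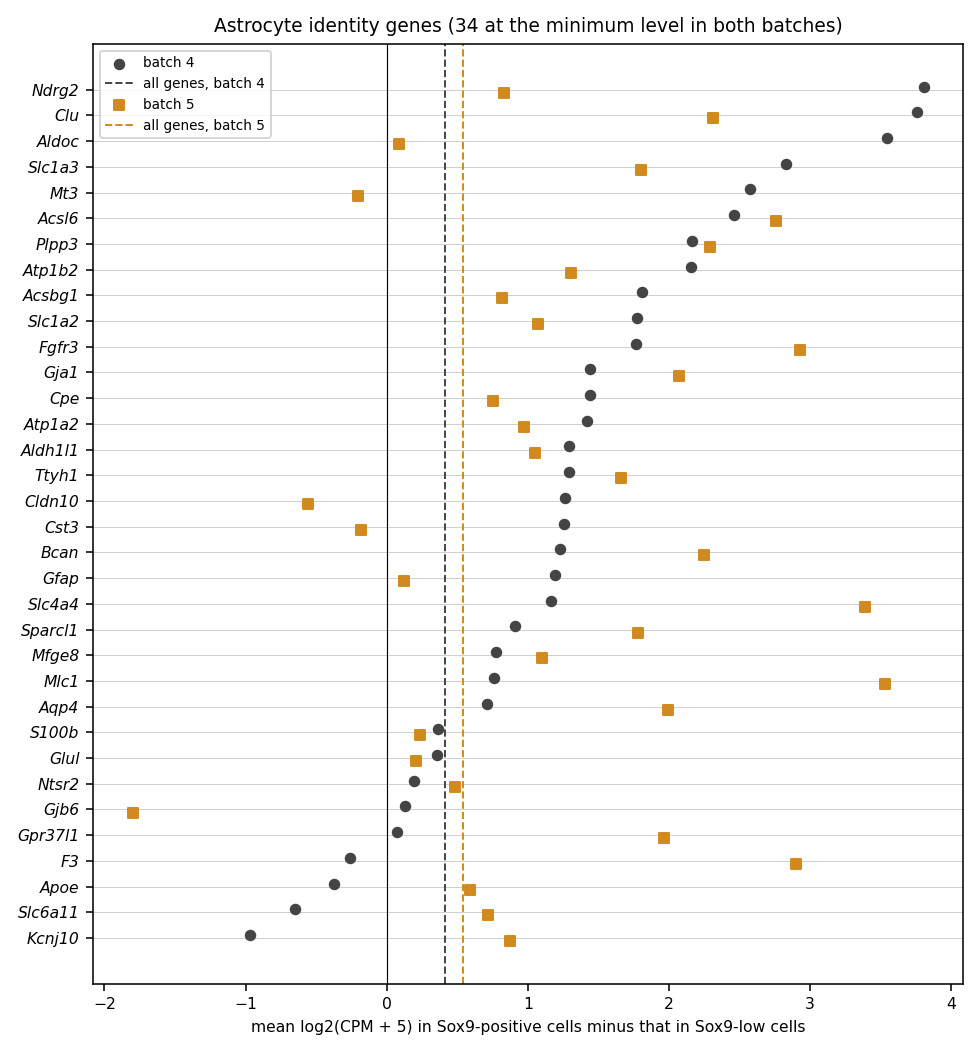
Difference in the mean of log2(CPM + 5) over cells, Sox9-positive minus Sox9-low, for 34 astrocyte identity genes in batch 4 (circles) and batch 5 (squares), with dashed lines at the all-gene medians of 0.42 and 0.54. In both batches 26 of the 34 lie above 0, as do both all-gene medians. Of 7130 genes, 61.0% had the same sign, positive or negative, in both batches.

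Regulators of glial fate held low levels in single cells, and 2 of the 20 measured in both batches were higher in both by cell means, Sox2 and Nfib. That share of 10% is near the 8.78% of all genes, and by pools 5 of 20 were higher in both beside 30.4% of all genes. Sox2, a SoxB factor of neural stem cells and astrocytes, had no read in any Sox9-low cell of either batch. It was read in 3 of 12 Sox9-positive cells of batch 4 (24.9 CPM pooled, at least 33.7-fold higher) and 7 of 13 of batch 5 (35.2 CPM, at least 72.2-fold), where the highest cells held 172 and 245 CPM. None of 4 and none of 8 cells allow a share of up to 60.2% and 36.9%. Control gRNA cells held Sox2 at 5.11 CPM and no gRNA cells at 11.8 CPM in their pools, against 0 and 0 CPM in the in-slice controls. Nfib, a nuclear factor I protein that acts with Sox9 at the onset of gliogenesis, pooled at 68.0 CPM in Sox9-positive and 6.15 CPM in Sox9-low cells of batch 4 and 112 CPM in Sox9-positive and 32.3 CPM in Sox9-low cells of batch 5. Its relative Nfia had 354 CPM in Sox9-positive and 101 CPM in Sox9-low cells of batch 4 and 76.7 CPM in Sox9-positive and 112 CPM in Sox9-low cells of batch 5, higher in batch 4 alone. Hes5, a Notch target, stood at 34.1 CPM in the Sox9-positive pool of batch 4 and had no read in the Sox9-low pool, and it pooled at 48.5 CPM in Sox9-positive and 21.1 CPM in Sox9-low cells of batch 5. Trps1, the other transcription factor of the study, pooled at 53.9 CPM in Sox9-positive and 0.246 CPM in Sox9-low cells of batch 4 and 46.5 CPM in Sox9-positive and 27.8 CPM in Sox9-low cells of batch 5. Over the list, 13 of 20 were higher and 2 lower by pools in batch 4, and 7 of 22 and 2 in batch 5, with medians of 1.60 and 0.36, where 61.4% and 49.8% of all genes were higher. Matrix genes that SOX9 binds in cartilage had medians of 1.17 over 5 genes and 1.36 over 10, near the all-gene values, and the batch 4 median was 5.12 in series 21S and -1.02 in series 21S2.

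Immediate early and stress genes, which cells switch on within minutes of a stimulus or of handling, had 9 of 20 members higher in both batches by cell means, where 8.78% of all genes were. By pools 7 of 20 were higher in both, beside 30.4% of all genes, with medians of 1.67 and 0.85 beside the all-gene 1.46 and 0.99. Calls by cell means were also commoner at higher levels, at 37.2% of genes of 50 to 500 CPM in batch 4 and 45.9% in batch 5. Of 21 members, 9 were higher and 0 lower in batch 4, and of 24, 17 and 0 in batch 5, with medians of 0.83 and 1.41. Fos, Fosb, Fosl2, Junb, Egr1, Nr4a1, Klf6, Hsp90aa1 and Zfp36 were higher in both. Egr1 stood at 0 to 4198 CPM (median 76.9) in Sox9-positive cells against 24.0, 35.2, 368 and 0.912 CPM in Sox9-low cells of batch 4 and 151 to 3609 CPM (median 1277) in Sox9-positive cells against 0 to 1281 CPM (median 137) in Sox9-low cells of batch 5, with pool ratios of 2.65 and 2.39. Junb stood at 0 to 3476 CPM (median 582) in Sox9-positive cells against 0, 2.20, 946 and 4.56 CPM in Sox9-low cells of batch 4 and 0 to 3501 CPM (median 1338) in Sox9-positive cells against 0 to 3022 CPM (median 664) in Sox9-low cells of batch 5, with 2.19 and 1.03. Some Sox9-low cells held as much as the Sox9-positive median for both genes. Fos had pool ratios of 2.00 and 0.20 and differences of cell means of 3.18 and 1.23. Pools of control gRNA cells held 737 CPM of Egr1, 849 of Junb and 2970.5 of Fos, near or above the Sox9-positive pools of 653 (Egr1), 1022 (Junb) and 2257 CPM (Fos) in the same batch.

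Lipid synthesis had its largest ratios in batch 4, where 17 of 21 cholesterol and fatty acid genes were higher and 2 lower. Of all genes there 61.4% were higher and 22.3% lower, and the list median was 3.07 beside the all-gene 1.46. No read in the Sox9-low pool was found for 13 listed genes, and with those at the bound that 3 counts give the median was 5.65. An all-gene median at that bound is not given here. With 1 CPM added in place of 5, the all-gene median of batch 4 was 2.85. In batch 5, 11 of 26 were higher and 3 lower, beside 49.8% and 18.1% of all genes (median 0.75, under the all-gene 0.99). By cell means 8 were higher in both batches, among them Srebf2 (the master regulator of the pathway), Idi1, Fdft1, Cyp51, Sc5d, Insig1 and Elovl5. Srebf2 pooled at 152 CPM in Sox9-positive and 0 CPM in Sox9-low cells of batch 4 and 188 CPM in Sox9-positive and 46.8 CPM in Sox9-low cells of batch 5. Fdft1 (squalene synthase) pooled at 90.3 CPM in Sox9-positive and 0 CPM in Sox9-low cells of batch 4 and 118 CPM in Sox9-positive and 19.6 CPM in Sox9-low cells of batch 5. Elovl5, a fatty acid elongase, stood at 0 to 1873 CPM (median 0.981) in the Sox9-positive cells of batch 4, where no Sox9-low cell had a read, and at 0 to 847 CPM (median 135) in Sox9-positive cells against 0 to 807 CPM (median 0) in Sox9-low cells of batch 5. By either measure 8 of 21 members were higher in both batches, not all the same ones, beside 30.4% of all genes by pools and 8.78% by cell means.

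Interferon and antiviral genes had pool medians above those of all genes in both batches, 2.80 and 2.64, with 14 of 18 and 17 of 21 higher. Their cell means moved less (0.64 and 0.73), and 9 and 15 listed genes had no read in the Sox9-low pools. With those at their bounds the medians were 5.17 and 5.30, again without an all-gene median at the same bound. Irf1, a transcription factor of the response, had no read in any Sox9-low cell and was read in 3 of 12 and 3 of 13 Sox9-positive cells of batches 4 and 5, up to 1224 and 452 CPM. As pools it was at least 171-fold and 127-fold higher. Ifi27, an interferon target, stood at 0 to 1266 CPM (median 3.07) in Sox9-positive cells against 0, 0, 1.07 and 0 CPM in Sox9-low cells of batch 4 and 0 to 437 CPM (median 83.4) in Sox9-positive cells against 0 to 81.6 CPM (median 0) in Sox9-low cells of batch 5. Antigen presentation genes had 6 of 15 higher in batch 4 and 13 of 17 in batch 5, with medians of 0.68 and 1.77, beside 61.4% and 49.8% of all genes. The batch 4 median was -0.041 without Sox9-low replicate 12, 0.045 without replicate 8 and 2.74 without replicate 11, and it was 3.82 in series 21S and -0.37 in series 21S2. H2-D1, a class I heavy chain, differed by 2.81 and 2.04 in cell means. Microglia hold many of these genes, and their marker list had medians of -0.75 in batch 4 and 1.01 in batch 5. Its part in the presentation genes was not tested.

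Signalling genes of the Notch, BMP, Wnt, FGF and hedgehog pathways had 19 of 22 higher in batch 4 (median 2.98) and 12 of 30 higher with 8 lower in batch 5 (median 0.40), beside 61.4% and 49.8% of all genes. By cell means 5 of 22 were higher in both, beside 8.78% of all genes: Bmpr2, Fgfr1, Fgfr2, Fgfr3 and Etv5, of which 3 are FGF receptors. Fgfr2 pooled at 76.1 CPM in Sox9-positive and 0.246 CPM in Sox9-low cells of batch 4, the second from 1 read, and at 142 CPM in Sox9-positive and 0 CPM in Sox9-low cells of batch 5, at least 292-fold higher. Its reads came from 4 of 12 and 8 of 13 Sox9-positive cells. Etv5, a transcription factor downstream of FGF signals, pooled at 52.1 CPM in Sox9-positive and 0 CPM in Sox9-low cells of batch 4, at least 70.6-fold higher, and at 140.4 CPM in Sox9-positive and 0.162 CPM in Sox9-low cells of batch 5, the second again from 1 read. It was read in 5 of 12 and 9 of 13 Sox9-positive cells. Control gRNA and no gRNA cells held 69.7 and 89.1 CPM of Fgfr2 and 26.1 and 46.0 CPM of Etv5. Glycolysis genes had medians of 0.29 and 0.22 by pools and 0.68 and 1.19 by cell means, and nuclear oxidative phosphorylation genes 0.45 and -0.13, and 0.52 and 0.82. Ldha, lactate dehydrogenase A, differed by 1.08 and 1.81 in cell means. Glutamate, GABA and ion handling genes, which share several members with astrocyte identity, had 0.26 and 0.18 by pools and 0.75 and 1.02 by cell means, with 9 of 25 higher in both by cell means. Their batch 4 pool median was 4.98 in series 21S, -0.64 in series 21S2 and 3.14 without replicate 12. That of glycolysis genes was 3.78 in series 21S and -0.0086 in series 21S2.

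Reactive astrocyte genes were higher in 14 of 18 in batch 4 (median 2.54) and in 7 of 19, with 6 lower, in batch 5 (median 0.02), beside 61.4% and 49.8% of all genes. By cell means 1 of the 14 measured in both batches, C3, was higher in both, beside 8.78% of all genes. Gfap, the intermediate filament gene that injury raises, stood at 0 to 3620.5 CPM (median 0.915) in Sox9-positive cells against 0, 1.10, 119.6 and 0 CPM in Sox9-low cells of batch 4 and 0 to 1002 CPM (median 11.2) in Sox9-positive cells against 0 to 2502 CPM (median 0) in Sox9-low cells of batch 5. Both classes held cells at 0 and cells over 100 CPM in each batch. Astrocyte factors that act on synapses had medians of 1.16 and 0.75, p53 target genes 2.04 and 1.57, and cell cycle genes 1.93 and 0.99. Genes of neurogenesis and immature neurons had 0.57 and 0.33 by cell means. Cdkn1a, the p53 target that arrests the cell cycle, pooled at 32.2 CPM in Sox9-positive and 0.246 CPM in Sox9-low cells of batch 4 and 28.7 CPM in Sox9-positive and 1.95 CPM in Sox9-low cells of batch 5.

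Markers of other cells did not move together. Microglial and macrophage genes were lower in 10 and higher in 5 of 25 in batch 4, and higher in 13 and lower in 0 of 24 in batch 5. Of all genes 61.4% and 49.8% were higher and 22.3% and 18.1% lower. The batch 5 median of 1.01 by pools was near the all-gene 0.99, and by cell means it was 1.64 beside 0.54. Summed per cell, the genes had a median of 9439 CPM in Sox9-positive and 10295 CPM in Sox9-low cells of batch 5. The batch 4 median of -0.75 was 0.61 without Sox9-low replicate 11. C1qa, a complement gene of microglia, stood at 0 to 1104 CPM (median 282) in Sox9-positive cells against 2140.1, 1.10, 1799.5 and 1.82 CPM in Sox9-low cells of batch 4 and 4.22 to 5057 CPM (median 606) in Sox9-positive cells against 0 to 908 CPM (median 228) in Sox9-low cells of batch 5. Oligodendrocyte genes had medians of 1.96 over 6 genes and -5.20 over 14, and -0.41 in batch 5 when each pool lost its highest cell for each gene. Mbp, the myelin basic protein gene, stood at 22.7 to 6975 CPM (median 1284) in the Sox9-positive and 0 to 8324 CPM (median 1708) in the Sox9-low cells of batch 5. Oligodendrocyte progenitor, pan-neuronal, endothelial, pericyte and ependymal lists had pool medians between 0.35 and 3.63 in batch 4 and between 0.49 and 3.38 in batch 5, several of them over 1 to 5 genes. Haemoglobin genes had 0.33 and 0.33. In batch 4 both classes held much of their RNA, with medians over cells of 8815 CPM in Sox9-positive and 8410 CPM in Sox9-low cells, and in batch 5 105 CPM in Sox9-positive and 86.4 CPM in Sox9-low cells. The part of blood RNA or of the title series in the batch 4 results was not tested.

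**Figure D5:**
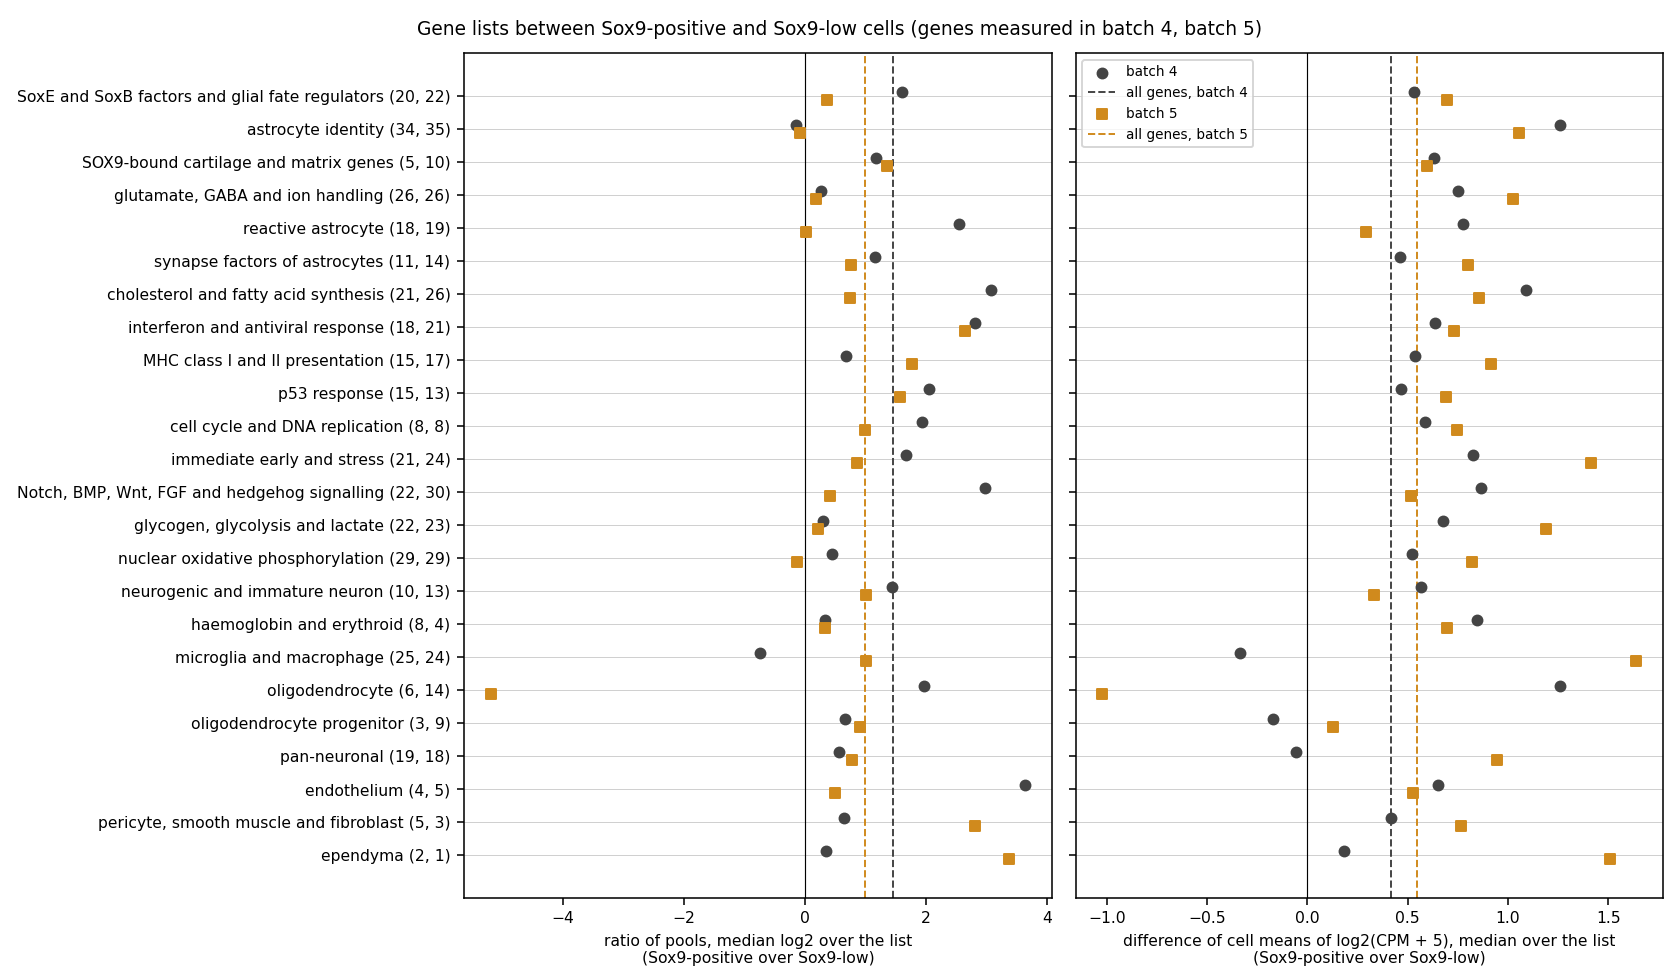
Median over the measured members of each of 24 gene lists (numbers measured in batches 4 and 5 in brackets) of the log2 ratio of pools (left) and of the difference of cell means of log2(CPM + 5) (right), Sox9-positive over Sox9-low, for batch 4 (circles) and batch 5 (squares), with dashed lines at the all-gene medians. Astrocyte identity lies left of both lines by pools (-0.15 and -0.09) and right of both by cell means (1.26 and 1.05), while genes at 500 CPM or more had medians of 0.68 and 0.17 by pools and 0.94 and 1.02 by cell means.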

How the data were processed

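The authors deposited whole-number read counts, genes by cells, as a table for each batch. They did not look normalized: totals differed between cells. Per the submitters' processing notes, which give no roles, the tools were RSEM 1.3.0 and STAR 2.6.0a and the builds mm10 and GRCm38. Strand handling was not given in these sources. Rows that name no gene (0.379% of counts in batch 4 and 0.137% in batch 5) were left out of totals. Symbols matched 34531 of 34636 and 27786 of 27849 gene rows. Of the 20 labelled Sox9 gRNA samples of batch 4, 4 had no column and were not analysed here. Members, lists and rules were chosen with earlier results of these data known.

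Counts were summed per class and batch and scaled to CPM (python 3.11.15, numpy 2.4.6, pandas 2.3.3, scipy 1.17.1, matplotlib 3.10.9). The naming rule used both batches, a minimum of 20 CPM and 40% of cells with a read, and left out Sox9, mitochondrial, ribosomal protein, pseudogene and uncertain gene names. It then took the first 12 per direction by the smaller of the batches' ratios without the highest cells, 4 per direction in 1 batch alone, and up to 4 most abundant members of each list. Other list members given here were chosen after their values were seen, as were the level ranges and promoter motifs. Smart-seq2 has no molecular identifiers, so 95% intervals (exact Poisson for levels, Clopper-Pearson for shares and fold values) cover counting error only. For shares of cells they also take each cell as an independent draw. A pool with 0 reads was set at 3 counts. Alternatives were another pseudocount, no filter, equal weight per cell, the highest cell left out, thinning to 200000 reads, other size factors, cells near the threshold left out and, added after seeing the data, another filter, single Sox9-low cells left out, each title series of batch 4 alone, and cells under 7000 CPM of astrocyte identity genes left out. The ratios were checked on simulated counts.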

Additional observations from a re-analysis of the deposited data

Results flagged for a closer look

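Dixon's test at 95% was applied to 25 sets of Sox9-low cells and measures. Chance alone picks out about 1 in 20 where values follow a normal distribution, which was not tested here. Among the 4 Sox9-low cells of batch 4, replicate 12 stood apart for astrocyte identity genes at 126802 CPM (group median 9792). In the same group replicate 11 stood apart for oligodendrocyte progenitor genes at 74.8 CPM (median 0), for pericyte, smooth muscle and fibroblast genes at 532 CPM (median 27.5) and for ependymal genes at 94.0 CPM (median 0). For progenitor and ependymal genes every other cell held 0 CPM, so any level above 0 would have stood apart. Among the 8 Sox9-low cells of batch 5, replicate 7 stood apart for astrocyte identity genes at 133296 CPM (median 33153). Replicate 6 stood apart for oligodendrocyte genes at 88964 CPM (median 2965) and for DsRed at 10310 on the CPM scale (median 2134).

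Reads were also present in rows named DsRed and GFP, which are not mouse genes and entered no comparison. On the CPM scale DsRed stood at 5367 in the Sox9-positive pool and 617 in the Sox9-low pool of batch 4, beside 8330 in control gRNA cells and 424 in in-slice controls. Per cell it ran from 1.24 to 36478 (median 2895) in Sox9-positive cells and from 1.10 to 1281 in Sox9-low cells of batch 4, so that 10 of 12 and 3 of 4 cells passed 100. In batch 5 it stood at 4386 and 3145 in the Sox9-positive and Sox9-low pools, beside 0.397 in no gRNA cells, and every cell of both classes passed 100. GFP stood at 56.0 and 141 in the Sox9-positive and Sox9-low pools of batch 4, beside 30.7 in in-slice controls. In batch 5 GFP stood at 69.1 and 55.0, under the 147 of no gRNA cells.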

How the results depend on the processing

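No paired analysis was possible because the classes were split from 1 group of cells whose replicate numbers name single cells. The planned values within title series of batch 4 asked for 3 cells a side, and each series held 2 Sox9-low cells. They were added without that minimum, and series 21S gave 3083 genes higher and 1121 lower in batch 4 and 1180 higher and 144 lower in both. Thinning kept all cells, and dropping the filter left the counts as they were by construction, while the all-gene medians became 0.10 and 0.20. Leaving out the highest cell of each pool gave 3085 genes higher and 253 lower in batch 4, 580 lower in batch 5 and 14 lower in both. With equal weight per cell there were 1488 higher and 1077 lower in batch 4, 3043 and 277 in batch 5, and 626 and 27 in both. Leaving out each Sox9-low cell of batch 4 in turn gave 5491 to 5952 higher and 1316 to 2133 lower there, and 2203 to 2373 higher and 182 to 253 lower in both. The share of tested genes called moved to 79.1% higher and 6.49% lower in batch 4 and 68.1% and 7.47% in batch 5 without the highest cells, to 72.2% higher in batch 4 without replicate 11, and to 60.0% and 16.4% in batch 5 without cells of 5 to 80 CPM Sox9. With 1 CPM in place of 5 added, the all-gene medians were 2.85 and 1.24. Among list medians of at least 0.5 and gene ratios of at least 1 in size, signs turned only in batch 4. Each Sox9-low cell in turn, each title series and the cells low in astrocyte genes were tried in batch 4 alone. In batch 5 the only single cell left out for all genes was the Sox9-low cell of fewest reads. Whether batch 5 signs would turn without its other Sox9-low cells was not tested. The smaller astrocyte identity medians, -0.15 and -0.09 by pools, were 1.26 and 1.05 by cell means. With the highest cells left out they turned for microglial genes (1.82) and Hnrnpab (0.88), by cell means for oligodendrocyte progenitor (-0.17) and pan-neuronal genes (-0.058), and with cells of 5 to 80 CPM Sox9 left out for pan-neuronal genes (-0.10). With each Sox9-low cell left out in turn, microglial genes ran from -1.07 to 0.61, Tmem119 from -1.82 to 4.29 and Inf2 from -1.85 to 0.28, all turned without replicate 11. Antigen presentation genes ran from -0.041 to 2.74 and Cdc123 from -3.15 to 0.49, turned without replicate 12, and Hnrnpab from -1.90 to 2.05, turned without replicate 2. In series 21S Palm turned (-3.15), and in series 21S2 matrix genes (-1.02), antigen presentation genes (-0.37), oligodendrocyte progenitor genes (-0.29) and Hnrnpab (1.39). Without cells low in astrocyte genes pericyte, smooth muscle and fibroblast genes (-0.40) and Hnrnpab (1.38) turned. The cause was not tested. With 4 and 8 Sox9-low cells, an absent gene bounds its share of cells only at 60.2% and 36.9%.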
